A study of Homo sapiens with 3 samples.

Results

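The 49 genes described here encode chromatin remodellers other than the BAF complex, histone deacetylases and corepressor scaffolds. They were picked by gene symbol from a table of 57773 gene IDs. The rule uses no measured value, although the set was proposed with earlier results of these data known. The set holds 9 CHD family ATPases, 7 scaffold and methyl-DNA binding subunits of the NuRD complex, and 9 ISWI ATPases and partners. It also holds 6 genes of the INO80, SRCAP and EP400 complexes, 3 other SNF2 ATPases, 11 histone deacetylases and 4 corepressor scaffolds. The study asked what silencing of ARID1B, which helps the BAF complex bind DNA, does in NB4 cells. The NB4 line was derived from human acute promyelocytic leukaemia and expresses the fusion protein PML-RARA. Polyadenylated RNA was sequenced from cells with an shRNA against ARID1B (hairpin 2 and hairpin 3, 1 library each) and from cells with a non-target control shRNA (1 library). All 3 libraries came from this 1 cell line, and the labels do not say whether they came from separate infections or cultures.

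Remodellers use ATP to slide, evict or exchange nucleosomes. NuRD joins a CHD ATPase to the deacetylases HDAC1 and HDAC2 through MTA and MBD subunits, while ISWI ATPases space nucleosomes and the INO80 and SRCAP families handle the histone variant H2A.Z. In acute promyelocytic leukaemia, PML-RARA recruits corepressors such as NCOR1 with histone deacetylases to retinoic acid target genes, and NuRD has also been described as a partner of the fusion.

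The promoter windows of 6 genes are shown because the results turn on these genes, and because their CpG content differs widely. CECR2 and SMARCA1 are the ISWI genes with the lowest levels per kilobase, CHD4 and HDAC1 are the catalytic subunits of NuRD with high levels, and CORO2A and TBL1X encode corepressor subunits that rose. Each window is from RefSeq on GRCh38.p14 and covers 300 bases around an annotated start, most of them upstream, with CpG dinucleotides in capitals. The windows are CECR2 at chr22:17359699-17359998 (plus strand), SMARCA1 at chrX:129523441-129523740 (minus strand) and CHD4 at chr12:6606402-6606701 (minus strand). The others are HDAC1 at chr1:32291833-32292132 (plus strand), CORO2A at chr9:98192588-98192887 (minus strand) and TBL1X at chrX:9463045-9463344 (plus strand). For TBL1X the most upstream of 2 listed windows is given.
CECR2: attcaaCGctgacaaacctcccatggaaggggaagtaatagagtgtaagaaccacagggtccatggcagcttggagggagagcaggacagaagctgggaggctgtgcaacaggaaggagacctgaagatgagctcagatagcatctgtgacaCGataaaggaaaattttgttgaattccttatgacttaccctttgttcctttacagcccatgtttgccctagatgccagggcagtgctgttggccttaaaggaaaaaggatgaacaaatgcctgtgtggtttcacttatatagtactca
SMARCA1: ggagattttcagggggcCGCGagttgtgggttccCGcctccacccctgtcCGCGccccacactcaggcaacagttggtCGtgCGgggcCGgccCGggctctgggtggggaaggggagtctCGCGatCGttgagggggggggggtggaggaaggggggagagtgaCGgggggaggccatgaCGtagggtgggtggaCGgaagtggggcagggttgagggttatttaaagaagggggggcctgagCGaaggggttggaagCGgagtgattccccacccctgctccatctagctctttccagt
CHD4: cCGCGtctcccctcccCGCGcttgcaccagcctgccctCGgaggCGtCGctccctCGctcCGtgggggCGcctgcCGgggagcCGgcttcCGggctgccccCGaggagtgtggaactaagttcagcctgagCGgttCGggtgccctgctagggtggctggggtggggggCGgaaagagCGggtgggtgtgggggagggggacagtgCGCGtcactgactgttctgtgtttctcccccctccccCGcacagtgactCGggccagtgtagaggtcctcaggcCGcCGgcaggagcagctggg
HDAC1: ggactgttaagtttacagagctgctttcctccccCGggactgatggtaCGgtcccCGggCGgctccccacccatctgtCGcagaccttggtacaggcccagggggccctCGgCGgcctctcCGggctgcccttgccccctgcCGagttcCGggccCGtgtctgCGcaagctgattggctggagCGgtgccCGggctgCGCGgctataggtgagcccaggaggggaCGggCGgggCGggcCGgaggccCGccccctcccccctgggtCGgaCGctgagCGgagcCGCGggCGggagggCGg
CORO2A: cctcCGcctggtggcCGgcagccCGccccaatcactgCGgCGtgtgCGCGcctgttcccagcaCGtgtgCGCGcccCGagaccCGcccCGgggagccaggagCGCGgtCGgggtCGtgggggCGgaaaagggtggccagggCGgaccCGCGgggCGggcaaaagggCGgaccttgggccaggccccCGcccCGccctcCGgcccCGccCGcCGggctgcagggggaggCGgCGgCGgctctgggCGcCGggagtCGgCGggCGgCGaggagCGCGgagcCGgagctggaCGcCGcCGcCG
TBL1X: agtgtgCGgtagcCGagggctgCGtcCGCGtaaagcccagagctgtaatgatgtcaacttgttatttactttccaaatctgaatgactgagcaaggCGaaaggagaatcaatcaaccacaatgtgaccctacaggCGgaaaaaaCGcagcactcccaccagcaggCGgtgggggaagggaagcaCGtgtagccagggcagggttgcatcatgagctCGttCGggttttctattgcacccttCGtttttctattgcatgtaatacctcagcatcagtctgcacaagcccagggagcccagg

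The CECR2 window held 2 CpG, against 17 in SMARCA1, 24 in CHD4, 28 in HDAC1, 45 in CORO2A and 13 in TBL1X. A window was found for 42 of the 49 members, and their median was 28 CpG and 67.7% G and C, against 22 CpG and 62.7% over 15843 protein-coding windows. The ratio of observed to expected CpG was at least 0.6 in 35 of the 42 members (83.3%), against 65.6% of all windows, and it was 0.128 in CECR2. On either strand, GGGCGG (SP1) was found in 73.8% of member windows and 58.3% of all, CCAAT in 33.3% and 36.4%, and CCGGAAG (ETS) in 16.7% and 14.2%. A GATA motif (AGATAA or else TGATAA, and likewise AGATAG or else TGATAG) was found in 21.4% of member windows, CECR2 among them, and 19.8% of all. TATAAA was found in 4.76% of member windows and 9.75% of all, and CACGTG (E-box) in 4.76% and 8.82%. An NRF1 motif was found in 0 of the 42 member windows and 1.77% of all, and a YY1 motif in 2.38%, which is NCOR1 alone, and 1.33%. Matches of letters are descriptions of the reference sequence, and which start site NB4 cells use was not measured.

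The libraries held 59997475 counts under hairpin 2, 62954803 under hairpin 3 and 61640692 in the control. ARID1B itself had 2209 and 2234 counts under hairpins 2 and 3, against 5268 in the control library. The level was 43.3% of control with hairpin 2 (41.2 to 45.5, exact 95% counting interval) and 42.2% with hairpin 3 (40.2 to 44.4), and the log2 fold change was -1.23 ± 0.125 (edgeR adjusted p = 1.4e-05). Of the promyelocyte marker list 9 of 10 genes passed the filter on low counts (1 higher, 1 lower). PRTN3 was higher, with 14914 and 13672 counts under hairpins 2 and 3, against 3363 in the control (log2 2.11 ± 0.151, edgeR adjusted p = 7.5e-07). CTSG was lower, with 1672 and 2183 counts against 6837 (log2 -1.81 ± 0.141, edgeR adjusted p = 1.2e-06). MPO, not called, had 836096, 741714 and 682719 counts under hairpin 2, under hairpin 3 and in the control, while ELANE and KIT had at most 10 counts. Summed levels of marker lists of other cell types differed between the libraries. The eosinophil, basophil and mast cell list summed to 2151 and 1134 CPM (counts scaled to library size with TMM factors) under hairpins 2 and 3, against 93.8 in the control, with 9 of 12 tested genes called higher and FCER1A at 0. Mature neutrophil genes summed to 64.0 and 42.2 CPM under hairpins 2 and 3, against 12.4 CPM in the control (3 of 4 tested higher, CEACAM8 at 0). Monocyte genes summed to 89.2 and 71.7 CPM under hairpins 2 and 3, against 53.7 CPM in the control (3 of 7 higher). Erythroid and megakaryocyte genes summed to 68.4 and 32.2 CPM under hairpins 2 and 3, against 9.52 CPM in the control (2 of 5 higher, with HBA1, PF4 and GP9 at 0). The T, NK and B cell list summed to 166 and 117 CPM under hairpins 2 and 3, against 101 CPM in the control (2 of 6 higher, MS4A1 at 0). The epithelial and fibroblast list summed to 18.7 and 23.2 CPM under hairpins 2 and 3, against 23.1 CPM in the control (0 of 2 called, KRT19 at 0). Proliferation genes summed to 4053 and 4636 CPM under hairpins 2 and 3, against 4148 CPM in the control, with 0 of 20 called. The part of these lists in the results below was not tested. In bulk RNA a change in the number of cells of a type and a change in RNA per cell cannot be told apart.

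Of the 49 members, 1 fell with ARID1B silenced, CECR2, and none was called higher. All members had a row in the table and 48 passed the filter, SMARCA1 being the exception. The test was edgeR's quasi-likelihood test with Benjamini-Hochberg adjustment over 20382 genes at 0.05. By that rule 2.08% of the members tested were lower, against 3.21% of all genes, and 0 were higher, against 5.49% of all genes. At an unadjusted p under 0.05, 2 members were higher (CHD5 and HELLS; 4.17%, against 11.4% of all genes) and 4 lower (CECR2, CHD6, MTA1 and MTA3; 8.33%, against 9.37%). Neither share was above that of all genes. DESeq2 called 0 members in either direction. With 2 libraries against 1, p-values measure only the spread between the hairpin libraries, which may be technical, and the lone control is assumed to vary as they do. In edgeR most of that spread is shared across genes rather than each gene's own. The fit had 1 residual degree of freedom beside 14.8 prior degrees of freedom taken from all genes.

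Together the members took 0.461% of all counts under hairpin 2 and 0.431% under hairpin 3, against 0.463% in the control. The median log2 fold change was -0.048 over the 48 members and -0.012 over all genes tested. The members lay in a narrow band. Of the 48, 36 (75.0%) lay within 0.25 of 0 on the log2 scale, against 52.8% of all genes, and 1 (2.08%) lay beyond 0.5, against 24.0%. Since most members were well counted, the same was taken over genes with a mean of at least 10 CPM. There the standard deviation of the log2 fold change over genes was 0.193 for 44 members and 0.365 for 9030 protein-coding genes, with 0 members and 10.4% of those genes beyond 0.5. The 95% interval of the fitted change lay inside a 2-fold change either way for 46 of 48 members and inside 1.5-fold for 38. CECR2 and HDAC11 had wider or more distant intervals.

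**Figure D1:**
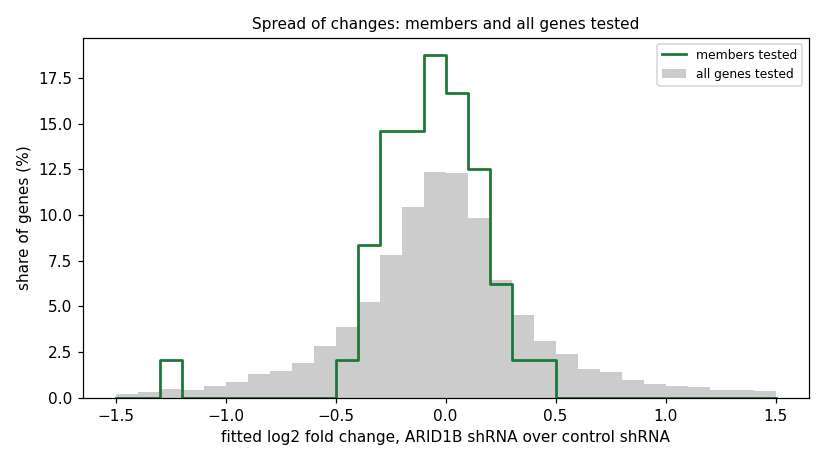
Distribution of the fitted log2 fold change (horizontal axis, ARID1B shRNA over control shRNA) as a share of genes in percent (vertical axis), for the 48 members tested (green line) and all 20382 genes tested (grey); values beyond the axis are not drawn. The members sit near 0, and CECR2 stands alone at the left.

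Both hairpin libraries lay below the control for 25 members (52.1%) and above it for 15 (31.2%), and 8 had the control between the hairpins. Over all genes tested, 41.0% were below in both and 36.9% above in both. At least 1.5-fold from the control, hairpin 2 had 0 members higher and 1 lower (CECR2), against 11.3% of all genes higher and 11.2% lower. Hairpin 3 had 1 higher (CHD5) and 1 lower (CECR2), against 8.64% higher and 9.33% lower.

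**Figure D2:**
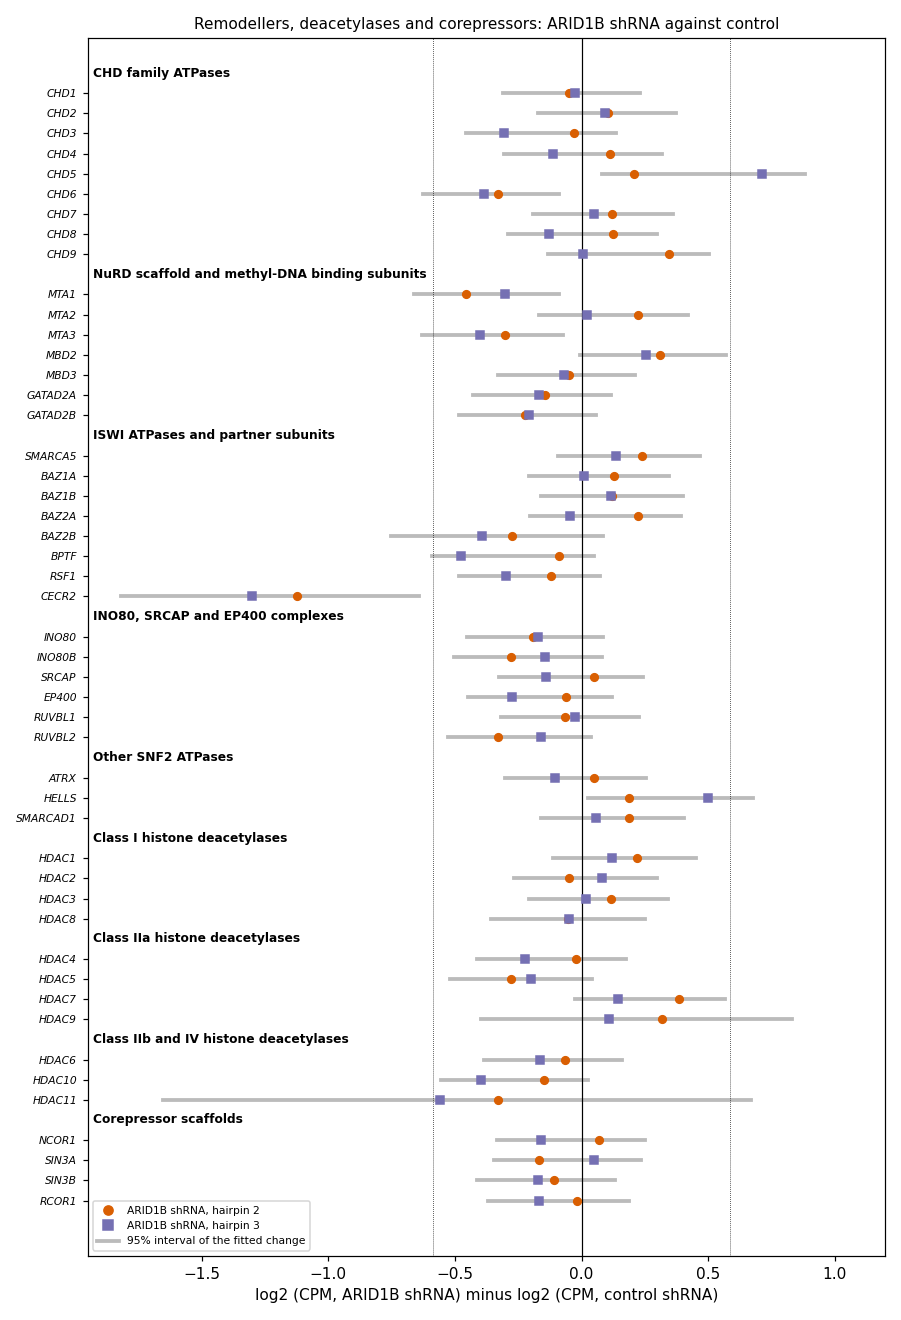
Log2 difference in CPM from the control library (horizontal axis) for hairpin 2 (orange circles) and hairpin 3 (purple squares), by member and subgroup; grey bars are 95% intervals of the fitted change and dotted lines mark 1.5-fold. CECR2 lies below 1.5-fold lower under both hairpins, and CHD5 passes 1.5-fold higher under hairpin 3 alone.

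CECR2 (ENSG00000099954), a bromodomain protein that pairs with the ISWI ATPases and is needed for neural tube closure in mouse, had the largest fitted change. It had 82 counts (1.36 CPM) under hairpin 2 and 75 (1.203 CPM) under hairpin 3, against 187 (3.01 CPM) in the control library. Both hairpin libraries were low and did not overlap the control. It stood at 45.3% of control under hairpin 2 (exact 95% counting interval 34.5 to 59.0) and 39.9% under hairpin 3 (30.1 to 52.5). CECR2 fell 2.35-fold (log2 -1.23 ± 0.277 SE, edgeR adjusted p = 0.00975, interval -1.82 to -0.64). The call was lost with DESeq2 (adjusted p = 0.153), without a filter on low counts in edgeR (0.465) and with a trend on exon length as an offset in edgeR (0.0555). Over the 11 fits its adjusted p ranged from 0.00321 to 0.465, and 8 made the call.

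The ISWI ATPases themselves were unevenly present. SMARCA1 (SNF2L) had 0 counts under hairpin 2, 1 under hairpin 3 and 0 in the control, where a count of 0 allows up to 0.0499 CPM under hairpin 2 and 0.0483 in the control, counting error only. SMARCA5 (SNF2H), the other ISWI ATPase, had 9761 counts under hairpin 2 and 9433 under hairpin 3, against 8552 in the control (log2 0.19 ± 0.132, not called). SMARCA5 was therefore the ISWI ATPase detected in all 3 libraries. Among the partners BAZ1B, the WSTF subunit of the WICH complex, had the highest level per kilobase of transcript, 36.3 and 36.2 CPM per kb under hairpins 2 and 3 and 33.3 in the control. It had 13305 and 13756 counts against 12631 (log2 0.12 ± 0.132, edgeR adjusted p = 0.684), with the hairpin libraries above the control by less than the error. BAZ1A (ACF1) had a log2 fold change of 0.07 and BAZ2A (TIP5, of the nucleolar remodelling complex) 0.09. BPTF, the large subunit of NURF that reads histone H3 methylation, had 4324 and 3426 counts under hairpins 2 and 3, against 4750 in the control (log2 -0.27 ± 0.151, not called). RSF1 had -0.21 and BAZ2B, at 5.67 and 5.21 CPM under hairpins 2 and 3 against 6.86 CPM in the control, -0.33. All 8 tested ISWI genes were lower under hairpin 3 than under hairpin 2, against 72.9% of all members and 49.8% of all genes tested. The share was 66.0% among protein-coding genes at a mean of 10 CPM or more with at least the members' median exon length. The log2 differences of the ISWI genes ran from -0.388 in BPTF to -0.0038 in BAZ1B, which is nearly a tie. That of CECR2 rests on 82 and 75 counts. Of 6 other ISWI partners 0 were called, the largest change being in TTF1, a termination factor of ribosomal RNA genes (log2 -0.15, edgeR adjusted p = 0.655).

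None of the 9 CHD ATPases was called. CHD4 (Mi-2beta), the main NuRD ATPase, had the highest level per kilobase of the family, at 57.9 and 49.7 CPM per kb under hairpins 2 and 3 and 53.7 in the control. It had 22936 and 20391 counts under hairpins 2 and 3, against 21931 in the control. The control lay between the hairpins, and the log2 fold change was 0.004 ± 0.147 with an interval of -0.31 to 0.32 (edgeR adjusted p = 0.99). Of the exon length of CHD4, 46.9% also belongs to another annotated gene, which has no row in the table. A further 10.2% overlap is with an antisense gene that had 2351 control counts, so reads may be shared. CHD3 (Mi-2alpha) had 6124 and 5242 counts under hairpins 2 and 3, against 6451 in the control (log2 -0.16). CHD5, the NuRD ATPase best known from neurons and as a tumour suppressor, had 1027 counts (17.1 CPM) under hairpin 2 and 1510 (24.2 CPM) under hairpin 3, against 918 (14.8 CPM) in the control. Both were above the control, by unequal amounts: 116% of control under hairpin 2 (exact 95% counting interval 106 to 126) and 164% under hairpin 3 (151 to 178). Its log2 fold change of 0.48 ± 0.189 was not called (edgeR adjusted p = 0.144; from 0.0983 to 0.525 over the 11 fits). CHD6 was the lowest of the family relative to control, with 3457 and 3449 counts against 4488 in the control (log2 -0.36 ± 0.127, edgeR adjusted p = 0.102). Its hairpin libraries lay close together and both below the control. CHD1, which reads H3K4 methylation, CHD2, CHD7, mutated in CHARGE syndrome, CHD8, an autism-associated gene, and CHD9 had log2 fold changes of -0.04, 0.10, 0.08, 0.004 and 0.19, none called.

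Among the NuRD scaffold genes the MTA paralogues differed in side. MTA1 had 11991 counts under hairpin 2 and 13849 under hairpin 3, against 16991 in the control (log2 -0.38 ± 0.135, edgeR adjusted p = 0.106). MTA3, a paralogue studied in breast epithelium and B cells, had 2518 and 2442 counts against 3210 in the control (log2 -0.35 ± 0.131, edgeR adjusted p = 0.121). Both lay below the control in each hairpin library, and neither was called in any of the 11 fits. MTA2 had 13675 and 12341 counts under hairpins 2 and 3, against 12101 in the control (log2 0.13 ± 0.139). Per kilobase, MTA1 stood at 69.3 and 77.2 CPM per kb under hairpins 2 and 3, against 95.1 in the control, and MTA2 at 74.4 and 64.7 against 63.7. The MTA1 to MTA2 ratio was thus 0.932 under hairpin 2 and 1.19 under hairpin 3, against 1.49 in the control, and MTA3 to MTA2 was 0.256 and 0.275 against 0.368. MBD2, which binds methylated DNA, had 2339 and 2329 counts against 1946 in the control (log2 0.28 ± 0.136, not called), and MBD3, whose mammalian protein binds it poorly, 4429 and 4535 against 4739 (-0.06). The MBD2 to MBD3 ratio was 0.248 and 0.241 under hairpins 2 and 3, against 0.193 in the control. GATAD2A and GATAD2B (p66alpha and p66beta), which link the deacetylase and ATPase modules, had -0.16 and -0.21. Of 7 other NuRD subunits 0 were called, PWWP2B having the largest value (log2 0.28, edgeR adjusted p = 0.266).

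**Figure D3:**
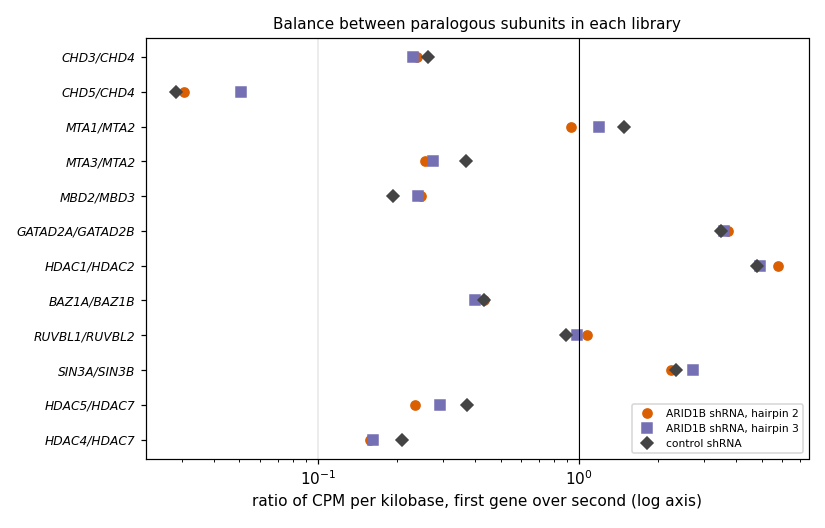
Ratio of levels (CPM per kilobase, log axis) between paralogous genes in the hairpin 2 (orange circles), hairpin 3 (purple squares) and control (dark diamonds) libraries, 1 library each. The MTA1 to MTA2 ratio is 0.932 under hairpin 2 and 1.19 under hairpin 3, against 1.49 in the control; these ratios carry no test.

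In the INO80, SRCAP and EP400 group 5 of 6 genes lay below the control in both hairpin libraries, against 41.0% of all genes tested. Of the 6 genes in this group 0 were called. RUVBL2, one of the paired AAA+ ATPases shared by these complexes, had 8493 counts under hairpin 2 and 9899 under hairpin 3, against 11030 in the control (log2 -0.24 ± 0.133, edgeR adjusted p = 0.33). Per kilobase RUVBL2 stood at 70.3 and 79.0 CPM per kb under hairpins 2 and 3 and 88.4 in the control, the highest control level of the group. Its partner RUVBL1 had 7992 and 8520 counts against 8633 in the control (log2 -0.04). INO80 had -0.18, EP400, a relative that deposits H2A.Z, -0.16, and SRCAP -0.04, with 74.1% of the exon length of SRCAP inside another annotated gene without a row. INO80B had -0.21, and it shares most of its exon length with an annotated readthrough transcript that has no row in the table. Whether the counts of INO80B include reads of that transcript was not tested, so they are uncertain. EP400 has a pseudogene with 739 control counts, and reads may be divided between the 2 copies. Of 27 other INO80, SRCAP and TIP60 subunits 0 were higher and 1 fell. That was MORF4L2, a paralogue of the chromodomain protein MRG15, with 4504 and 4058 counts under hairpins 2 and 3, against 7328 in the control (log2 -0.75 ± 0.131, edgeR adjusted p = 0.00146). MORF4L2 was called in 10 of the 11 fits. The median of those 27 genes was -0.035.

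HELLS (LSH), an SNF2 ATPase that supports DNA methylation at repeats, had 1866 counts under hairpin 2 and 2398 under hairpin 3, against 1690 in the control. Both were above the control, hairpin 3 by more, and the log2 fold change of 0.35 ± 0.153 was not called (edgeR adjusted p = 0.196). SMARCAD1, which acts in replication-coupled chromatin, had the highest control level per kilobase of the 3 other SNF2 genes, 10.6 CPM per kb, with 12.1 and 11.04 under hairpins 2 and 3. It had 3572 and 3380 counts against 3240 (log2 0.12 ± 0.133, edgeR adjusted p = 0.674). ATRX, which deposits H3.3 with DAXX, had -0.02. Of 10 partners of HELLS and ATRX and DNA methylation genes, 2 rose and 1 fell. The de novo methyltransferase DNMT3B had 3484 and 4242 counts under hairpins 2 and 3, against 2577 in the control (log2 0.60 ± 0.142, edgeR adjusted p = 0.0132). TET2, which oxidises methylcytosine and is often mutated in myeloid disease, had 1905 and 1560 counts against 1198 (0.56 ± 0.163, edgeR adjusted p = 0.0443). CDCA7L, a relative of the HELLS partner CDCA7, had 6988 and 10063 counts against 12774 (-0.57 ± 0.162, edgeR adjusted p = 0.0388), and 20.4% of its exon length lies opposite DNAH11. For each of these genes both hairpin libraries lay on 1 side of the control, but only 8 of the 11 fits called DNMT3B, 4 TET2 and 5 CDCA7L (highest edgeR adjusted p = 0.47, 0.472 and 0.481, without a filter on low counts).

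None of the 11 histone deacetylases was called, and their median log2 fold change was -0.052. HDAC1, the class I enzyme of NuRD, SIN3 and CoREST, had 11799 counts under hairpin 2 and 11439 under hairpin 3, against 10480 in the control (log2 0.17 ± 0.133, edgeR adjusted p = 0.532). Its level was the highest of the deacetylases, at 92.4 and 86.4 CPM per kb under hairpins 2 and 3 and 79.5 in the control. HDAC2, its close paralogue, had 9480 and 10771 counts against 10144 (0.02), HDAC3, the enzyme of the NCOR complex, 0.07, and HDAC8 -0.05. The class IIa enzymes, which bind MEF2 factors, lay on both sides. HDAC7 had 7090 and 6228 counts under hairpins 2 and 3, against 5607 in the control (log2 0.27 ± 0.139, edgeR adjusted p = 0.293). HDAC5 had 2173 and 2378 counts against 2720 (-0.24 ± 0.132) and HDAC4 2456 and 2212 against 2575 (-0.12). The HDAC5 to HDAC7 ratio was 0.236 and 0.294 under hairpins 2 and 3, against 0.373 in the control. HDAC7 stood at 28.8 and 24.4 CPM per kb under hairpins 2 and 3 against 22.0 in the control, the highest of its class. HDAC9 had 132 and 118 counts against 109 (0.22 ± 0.289), too few to bound its change within 1.5-fold. Of 12 MEF2 factors and class IIa partners 0 were called, with CAMK2G, a calcium-dependent kinase, at 0.54 ± 0.166 (edgeR adjusted p = 0.0553). CAMK2G was called in 3 of the 11 fits (from 0.0273 to 0.511 over them).

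The class IIb and IV enzymes were all below the control in both hairpin libraries, as were 41.0% of all genes tested. HDAC10, a polyamine deacetylase, had 4500 counts under hairpin 2 and 3927 under hairpin 3, against 5145 in the control (log2 -0.27 ± 0.137, edgeR adjusted p = 0.295). It had the highest control level of these 3 genes, 30.8 CPM per kb, with 27.8 and 23.4 under hairpins 2 and 3. HDAC10 shares 55.8% of its exon length with MAPK12, which had 9218 control counts, so its reads are uncertain. HDAC6, the tubulin deacetylase, had -0.11, and HDAC11 had 15 and 13 counts against 20 in the control, with an interval of -1.65 to 0.67. Of 7 sirtuins, the NAD-dependent deacetylases, 0 were called, SIRT7 having the largest value (log2 0.33, edgeR adjusted p = 0.219). Of 12 histone acetyltransferases 0 were higher and 1 fell, KAT6B, the MORF acetyltransferase, with 1957 and 1786 counts under hairpins 2 and 3, against 2642 in the control (log2 -0.48 ± 0.138, edgeR adjusted p = 0.0415). KAT6B was called in 6 of the 11 fits (from 0.0204 to 0.47 over them).

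**Figure D4:**
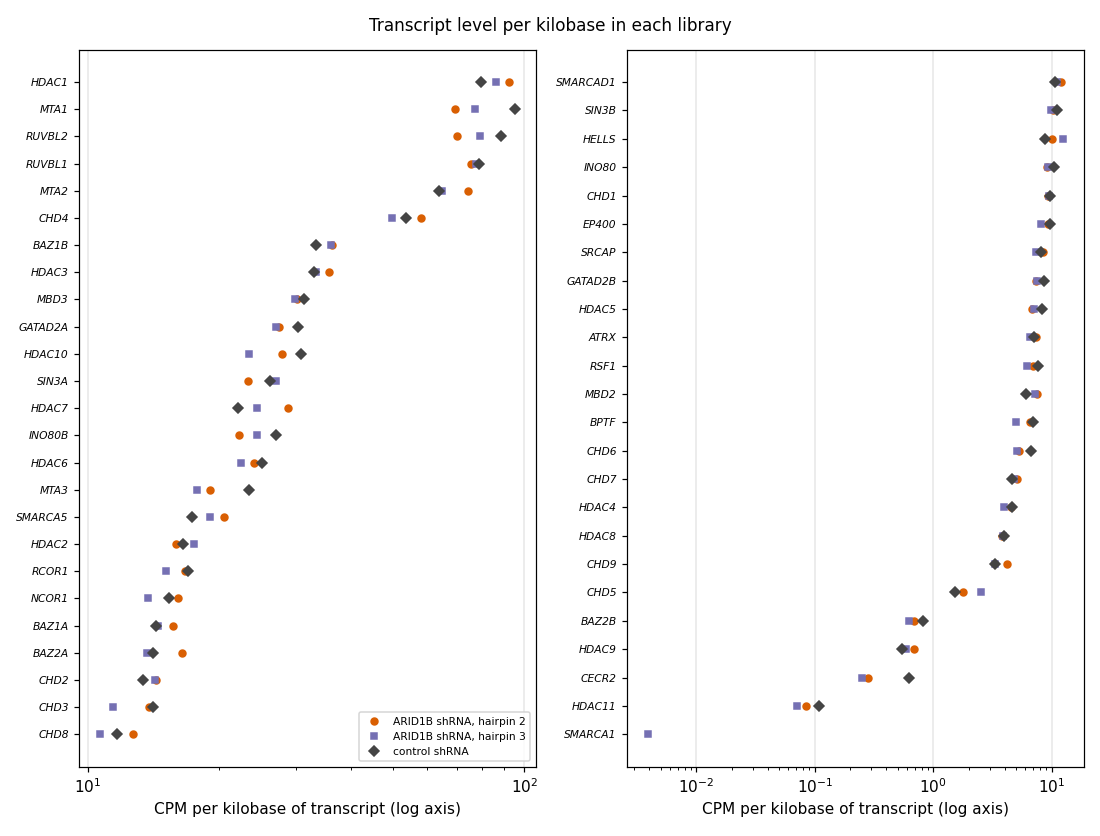
Level per kilobase of transcript (CPM per kb, log axes) of each member in the hairpin 2 (orange circles), hairpin 3 (purple squares) and control (dark diamonds) libraries, 1 library each, ordered by mean level; values of 0 (SMARCA1 under hairpin 2 and in the control) cannot be drawn. HDAC1, MTA1, RUVBL2, RUVBL1 and MTA2 lead, and HDAC11 and SMARCA1 are lowest.

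The corepressor scaffolds did not pass either. NCOR1 had 10386 counts under hairpin 2 and 9202 under hairpin 3, against 10235 in the control, which lay between the hairpins (log2 -0.04 ± 0.138, interval -0.33 to 0.25). SIN3A had 9414 and 11336 counts under hairpins 2 and 3, against 10916 in the control (-0.06 ± 0.138, edgeR adjusted p = 0.877), and it had the highest control level of the 4 scaffolds, at 26.1 CPM per kb. SIN3B had -0.14 and RCOR1, the CoREST scaffold, -0.09. Among 6 other subunits of the NCOR complex 2 rose and 0 fell. CORO2A, an actin-binding subunit, had 4430 counts under hairpin 2 and 3688 under hairpin 3, against 2389 in the control (log2 0.79 ± 0.151, edgeR adjusted p = 0.00316). TBL1X, a WD-repeat exchange factor of the complex, had 3775 and 3284 counts under hairpins 2 and 3, against 2314 in the control (0.63 ± 0.145, edgeR adjusted p = 0.0109). Both genes stood above the control in each hairpin library. CORO2A was called in 10 of the 11 fits and TBL1X in 8. TBL1X was lost in edgeR with the exon length offset (adjusted p = 0.0548), against a fold change of 1.2 (0.0536) and without a filter on low counts (0.47).

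Of 13 other SIN3 subunits 0 were called, BRMS1L having the largest value (log2 0.33, edgeR adjusted p = 0.385). Of 17 other CoREST and CtBP subunits 1 rose and 1 fell, a pair of paralogous zinc finger repressors. GFI1B, the erythroid and megakaryocyte member, had 450 and 316 counts under hairpins 2 and 3, against 126 in the control (log2 1.63 ± 0.276, edgeR adjusted p = 0.00119). GFI1B was called in 10 of the 11 fits. Of its exon length, 5.72% lies opposite TSC1, which had 2796 control counts, so reads may be shared. GFI1, the granulocyte member, had 9188 and 9530 counts against 12913 (-0.44 ± 0.128, edgeR adjusted p = 0.0401; DESeq2 adjusted p = 0.0741), and 6 of the 11 fits called it. Over all 117 partner genes 5 rose and 4 fell, with a median log2 fold change of -0.023, beside the 5.49% higher and 3.21% lower of all genes.

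**Figure D5:**
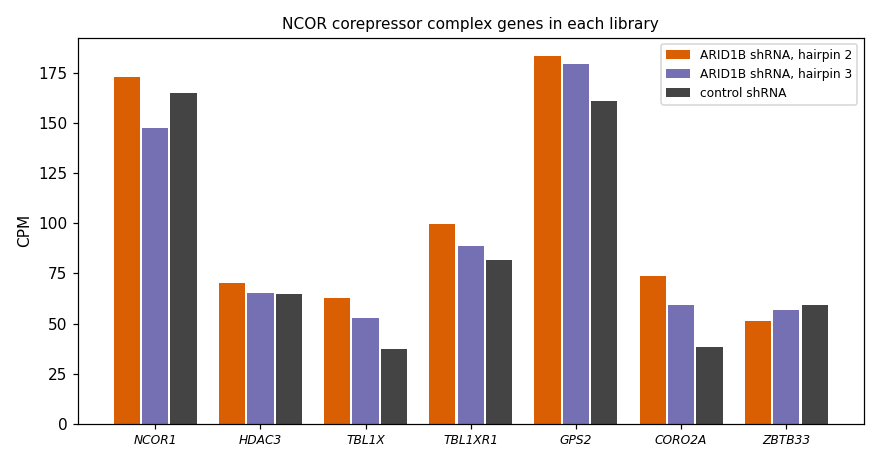
Level in CPM (vertical axis, from 0) of NCOR complex genes in the hairpin 2 (orange), hairpin 3 (purple) and control (dark) libraries, 1 library a bar and no error bars. TBL1X and CORO2A stand higher under both hairpins than in the control, while NCOR1 and HDAC3 are close to it.

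The hairpins differed from each other over the members. Hairpin 3 was below hairpin 2 in 35 of 48 members (72.9%), with a median log2 difference of -0.098, against 49.8% and 0.001 over all genes tested. Many members have long transcripts, with a median exon length of 9928 nt. In the 25 members of at least that length hairpin 3 was lower in 80.0% (median -0.176), and in the 23 shorter ones in 65.2% (median -0.058). Among protein-coding genes with a mean of at least 10 CPM, hairpin 3 was lower in 66.0% of the 1128 genes of at least that length (median -0.070) and in 46.7% of the 7902 shorter ones (median 0.014). Length therefore moved with the difference between the hairpin libraries, and its part in the members' values was not tested further. The members' median relative to control was -0.040 under hairpin 2 and -0.119 under hairpin 3.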

How the data were processed

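Polyadenylated RNA of 3 NB4 libraries was measured. The authors deposited raw read counts for each gene as whole numbers. The submitters' processing notes name STAR, Cufflinks, featureCounts and hg19; for their roles, the annotation release and strand use, the sources used here give nothing, so reads of overlapping genes may be shared. GENCODE 29 gave names (52338 of 57773 IDs), transcript lengths (APPRIS principal transcript) and overlaps; no coordinates were taken from it. Unnamed IDs held 1.55%, 1.47% and 1.56% of counts under hairpin 2, hairpin 3 and control.

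Members and lists were chosen with earlier results of these data known. In R 4.3.3, edgeR 4.0.16 (filterByExpr, minimum count 10; TMM factors 1.0024, 0.9903 and 1.0074 for hairpin 2, hairpin 3 and control; glmQLFit with legacy = FALSE) was fitted on the whole table, with 1 residual degree of freedom and a common coefficient of variation of 0.110, and was tested on simulated data. Standard errors are the log2 fold change over the square root of F. Per-library differences used log2 CPM with a prior count of 2; counting intervals are exact and, as reads carry no molecular identifiers, cover counting error only, as does the floor of 3 counts. Alternatives included DESeq2 1.42.0, other scalings and filters, and a length offset.

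Named in full were called members, members at least 1.5-fold from control under either hairpin (mean CPM 1 or more), and the highest member per kilobase of each subgroup; other members given with values were added after their values were seen. In each partner list, called genes were named, otherwise the largest change at a mean CPM of 1 or more. FAM60A and UHRF1 were not used, and some genes of the lists are not reported here. Promoter windows were scanned for 8 motifs; the letters of NRF1 and YY1 are not printed.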

Additional observations from a re-analysis of the deposited data

How the results depend on the processing

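No member was called higher in any of the 11 fits, and 47 of the 48 tested were called in none. Members called lower numbered 1, but 0 with DESeq2, without a filter on low counts and with the exon length offset. Partner genes called higher numbered 5, but 0 without a filter, 2 against a fold change of 1.2 and 2 with the length offset. Partner genes called lower numbered 4, but 1 with DESeq2, 0 without a filter, 1 with the CPM filter of 1, 1 against a fold change of 1.2 and 1 with the length offset. Without a filter ARID1B had a log2 fold change of -1.23 and did not pass (edgeR adjusted p = 0.465). Members at least 1.5-fold from control under hairpin 3 numbered 2, and 1 at 2-fold. The members' median, -0.048, ranged from -0.119 to -0.040 with 1 hairpin left out. These are values only, since no residual degrees of freedom remain, and the control cannot be left out. With the length offset the median was -0.0006. The cause of these differences was not tested.

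Over all genes 1119 were higher and 655 lower (63.1% higher). The counts were 760 and 282 with DESeq2 (72.9%), 0 and 0 without a filter, 622 and 338 with the CPM filter of 1, 707 and 339 against a fold change of 1.2, and 499 and 228 with the length offset. With upper quartile factors they were 991 and 850 (53.8%). No paired analysis was possible because there was only 1 control library. At 44 members with at least 10 CPM the standard error was 0.127 to 0.189. Smaller changes were not detectable at this depth and replication, and some changes well above their standard error were not called either. Among these were MTA1 (log2 -0.38 ± 0.135) and CHD5 (0.48 ± 0.189). The smallest change that could have been called was not worked out.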
